A study of Mus musculus with 6 samples.

Results

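Tissue factor, its inhibitors and the plasminogen activators were read in the lining of the mouse stomach through 8 genes, F3, Tfpi, Tfpi2, Thbd, Procr, Plau, Plaur and Plat, out of 31689 genes and unnamed transcripts on the array. They were measured by 10 of the 39399 probes used, 2 each for F3 and Tfpi and 1 for every other gene. The genes were picked by name, and the set was taken up because F3 stood much higher in A4gnt-null than in wild-type mucosa at 5 and 50 weeks. The difference between genotypes is therefore given for all 8 genes as a description with no test. The tissue was mucosa of the glandular stomach freed from its muscle layer, from C57BL/6J mice. Wild-type mice of 5, 10 and 50 weeks were compared with A4gnt-null mice of the same ages, 1 mouse and 1 array for each genotype and age. A4gnt encodes the enzyme that adds a terminal α1,4-linked N-acetylglucosamine to gland mucin. Which part of it the null allele lacks is not stated in the labels.

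Tissue factor, the product of F3, is the cell-surface receptor that starts clotting when it binds factor VIIa. Tfpi and Tfpi2 encode Kunitz-type protease inhibitors, while thrombomodulin (Thbd) and the endothelial protein C receptor (Procr) turn thrombin toward the activation of protein C, which slows clotting. Plau and Plat encode the urokinase and tissue plasminogen activators, proteases that cut plasminogen to plasmin, and Plaur encodes the receptor that holds urokinase at the cell surface. Plasmin dissolves fibrin and takes part in matrix breakdown and cell migration in wounded epithelium.

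Signals are given relative to the 75th percentile of their own array, so that a relative signal of 1 equals that percentile, which lay between 234.7 and 368.8 fluorescence units. Between 54.8% and 59.2% of spots on an array were well above background, and the number of arrays limits the precision. The A4gnt probe read 0.682, 0.971 and 0.980 in the wild type at 5, 10 and 50 weeks, and in the null mice it never came well above background, which makes it at least 15.0-fold lower at each age. All 10 gastric epithelial markers were well above background on all 6 arrays. Xist was well above background only on the 2 arrays of 5-week mice, and the Y-linked genes Ddx3y and Eif2s3y only on the 4 arrays of older mice, so age and sex cannot be told apart where 5 weeks is compared with a later age. Every wild-type array lay on slide 1 and every null array on slide 2, so slide and genotype cannot be told apart either. The 10-week wild-type array stood apart in liver transcripts, with albumin (Alb) at a relative signal of 10.2 against 0.0698 to 1.46 on the other 5. The basal keratin gene Krt5, a marker of squamous epithelium, stood at 1.40 and 2.27 in the wild type at 10 and 50 weeks and between 0.0692 and 0.102 on the other 4. The smooth muscle gene Myh11 ranged from 0.176 on the 5-week wild-type array to 1.87 on the 50-week one.

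F3, the gene for which the set was chosen, stood far higher in the null than in the wild-type array at 5 weeks, and at 10 weeks the genotypes were nearly level. Its main probe gave relative signals of 0.650, 4.80 and 1.43 in the wild type at 5, 10 and 50 weeks. On the null arrays the same probe gave 8.96, 4.43 and 6.05. Wild-type signals were low at 5 and 50 weeks and high at 10 weeks, where the 2 genotypes crossed, while null signals stayed high throughout. F3 was thus 13.8-fold higher in the null array at 5 weeks and 4.23-fold higher at 50 weeks, and differed by -0.11 on the log2 scale at 10 weeks. The mean log2 difference over the 3 ages was 1.92 ± 1.96 (SD of the 3 differences, n = 3 ages). It was 2.93 without the 10-week arrays and 0.98 without the 5-week arrays, so the mean depends on which ages enter it.

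The F3 values rest on 2 probes that read separate parts of the transcript. The main probe lies near the 3′ end of the mRNA (mm9, chr3:121437717-121437776). The other spans 738 bases of the genome with its 60 bases (mm9, chr3:121434609-121435346, plus strand), as a probe across a splice junction does, and lies in the coding sequence. It is printed because it reads F3 independently of the 3′ end.

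F3 coding probe: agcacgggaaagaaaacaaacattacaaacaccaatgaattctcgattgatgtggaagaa

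This probe stood at relative signals of 0.0472, 0.206 and 0.0587 in the wild type at 5, 10 and 50 weeks, the first of these not well above background. The null values were 0.385, 0.188 and 0.212. The 6 arrays fell in the same order as with the main probe, with the wild-type signals of 5 and 50 weeks lowest and that of the 5-week null array highest. The log2 difference was -0.13 at 10 weeks and 1.86 at 50 weeks, against -0.11 and 2.08 on the main probe.

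**Figure D1:**
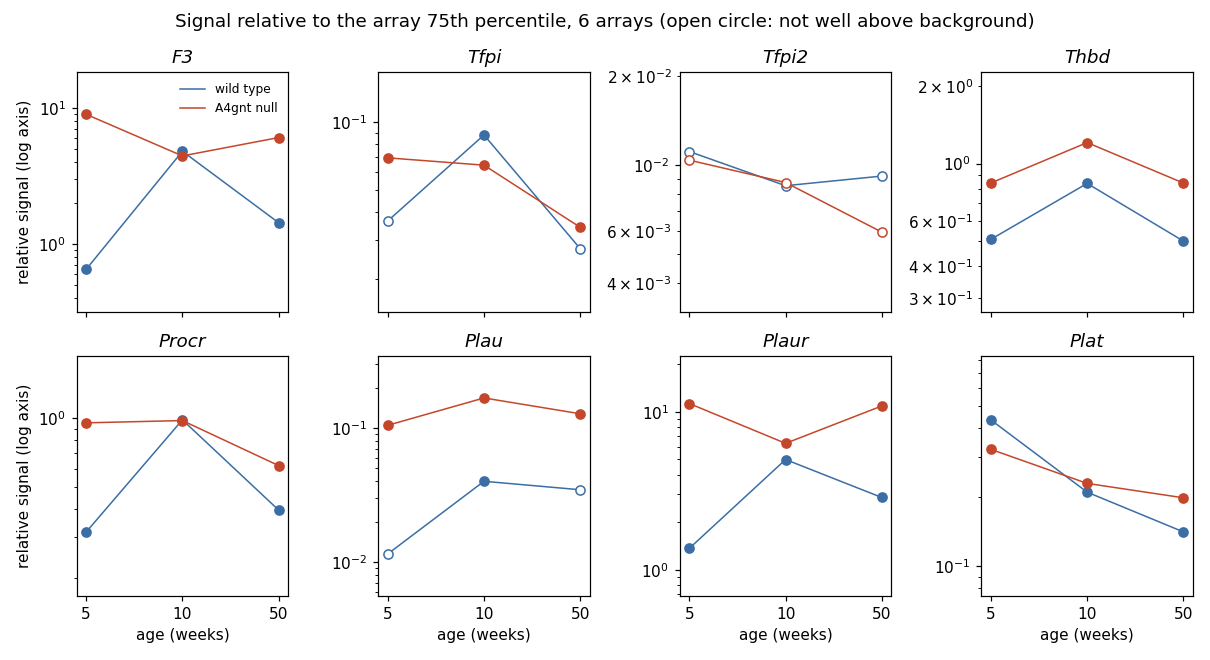
Relative signal (array signal over the array's 75th percentile, log axis, a separate scale for each gene) of the 8 genes at 5, 10 and 50 weeks; each point is 1 mouse, blue wild type and red A4gnt null, and open circles were not well above background. F3, Procr and Plaur peak at 10 weeks in the wild type, where F3 and Procr meet the null values, while Plau is higher in the null array at every age.

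The inhibitors of tissue factor gave little signal. Tfpi2 stayed at background level on all 6 arrays, with relative signals between 0.00595 and 0.0111, so no difference can be given for it. Tfpi, the inhibitor of the tissue factor and factor VIIa complex, was well above background on 4 arrays with its brighter probe. Its relative signals there were 0.0878 on the 10-week wild-type array and 0.0695, 0.0644 and 0.0341 in the null mice at 5, 10 and 50 weeks. At 5 weeks the null signal of Tfpi exceeded the wild-type one at least 1.46-fold, and the genotypes differed by -0.45 at 10 weeks. Its other probe differed by 0.71 at 10 weeks, so the 2 probes disagreed in direction at the age where both genotypes were well above background on both.

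The receptors of the protein C branch were well above background on all 6 arrays. Thbd stood at relative signals of 0.508, 0.837 and 0.50 in the wild type at 5, 10 and 50 weeks. In the null arrays it stood at 0.841, 1.21 and 0.840. It was highest at 10 weeks in both genotypes, and its genotype difference was nearly the same at the 3 ages, at 0.73, 0.53 and 0.75 (mean 0.67 ± 0.12, SD, n = 3 ages). The lowest null signal lay above the highest wild-type signal by less than the spread of replicate spots, whose median log2 SD was 0.0864 to 0.121.

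Procr, like F3, was nearly level between genotypes at 10 weeks. Its relative signals were 0.317, 0.983 and 0.395 in the wild type and 0.954, 0.976 and 0.619 in the null arrays at 5, 10 and 50 weeks. The null arrays were 3.01-fold higher at 5 weeks and 1.57-fold higher at 50 weeks, and the genotypes differed by -0.01 on the log2 scale at 10 weeks. The mean log2 difference was 0.74 ± 0.80 (SD, n = 3 ages), 1.12 without the 10-week arrays and 0.32 without the 5-week arrays. Both receptors are known from endothelium. Of 12 endothelial markers 9 were tested, and their median log2 difference between genotypes was 0.28, -0.34 and -0.13 at 5, 10 and 50 weeks. At these ages Thbd differed by 0.73, 0.53 and 0.75 and Procr by 1.59, -0.01 and 0.65. In the wild type the median of the endothelial markers was higher by 0.51 at 10 than at 5 weeks. It differed by -0.93 from 10 to 50 weeks, and both directions were those seen for Thbd and Procr. Robo4, an endothelial guidance receptor, stood at 0.319, 0.791 and 0.229 in the wild type and 0.388, 0.410 and 0.267 in the null arrays. From 5 to 10 weeks in the wild type Cdh5, Esam, Tie1, Egfl7 and Plvap rose too, Cdh5 and Tie1 from signals not well above background. Over the same interval Kdr went the other way, from 28.4 to 20.7, as did Pecam1 (0.0826 to 0.0635) and Cldn5 (0.0597 to 0.0590). The summed relative signal of the list, 28.8 to 34.8 in the wild type and 20.2 to 36.0 in the null arrays, was mostly that of Kdr, at 20.7 to 28.4 and 15.4 to 29.3. The part of endothelium in the Thbd and Procr values was not tested. In whole mucosa, fewer cells of a type and less RNA per cell cannot be told apart.

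Plau, the urokinase gene, was higher in the null array at every age. It was well above background on 1 wild-type array, that of 10 weeks, at a relative signal of 0.0400. The lowest signal above background on that array was 0.0319, so this value is also dim. On the null arrays it stood at 0.105, 0.168 and 0.128 at 5, 10 and 50 weeks. All 3 null signals were above all 3 wild-type signals. The same held for 14.7% of the 15968 genes above background on all 6 arrays, a set that does not include Plau. The null signal exceeded the wild-type one 4.19-fold at 10 weeks, and by no less than 2.21-fold at 5 weeks and 3.17-fold at 50 weeks. Plau alone among the 8 genes had a difference of 2-fold or more at 10 weeks. The mean log2 difference of 2.38 ± 0.71 (SD, n = 3 ages) rests in part on wild-type signals that were not well above background, and it was 0.49 with the normexp background correction, which adds an offset and compresses dim signals. With that correction 0 members were 2-fold higher at 10 weeks.

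Plaur, the urokinase receptor, was bright on every array. Its relative signals were 1.37, 4.98 and 2.87 in the wild type and 11.3, 6.31 and 10.9 in the null arrays at 5, 10 and 50 weeks. The lowest null signal, that of 10 weeks, was above the highest wild-type signal, also of 10 weeks. Plaur was 8.26-fold higher in the null array at 5 weeks, 1.27-fold at 10 weeks and 3.80-fold at 50 weeks. The mean log2 difference was 1.77 ± 1.36 (SD, n = 3 ages), 2.49 without the 10-week arrays and 1.13 without the 5-week arrays.

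Plat, the tissue plasminogen activator gene, went apart from Plau and Plaur. Its relative signals were 0.435, 0.211 and 0.141 in the wild type and 0.324, 0.230 and 0.199 in the null arrays at 5, 10 and 50 weeks. The signal was highest at 5 weeks and lowest at 50 weeks in both genotypes. The genotypes differed by -0.43, 0.13 and 0.49 at the 3 ages (mean 0.07 ± 0.46, SD, n = 3 ages), and their ranges overlapped.

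**Figure D2:**
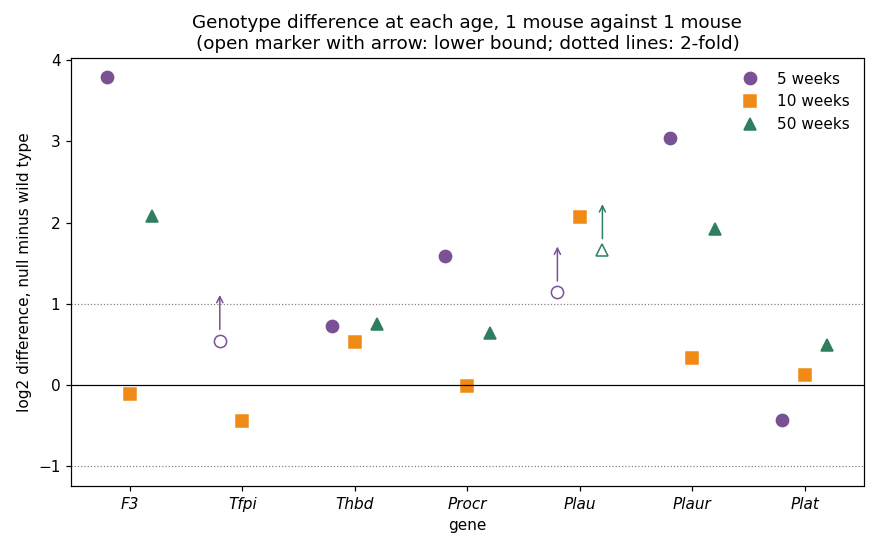
Log2 difference, null minus wild type, of each gene at 5 (circle), 10 (square) and 50 weeks (triangle), each from 1 mouse against 1 mouse; open markers with arrows are lower bounds, dotted lines mark 2-fold, and Tfpi2 and the 50-week value of Tfpi are not drawn because they gave no difference. F3 and Plaur lie above 2-fold at 5 and 50 weeks and near 0 at 10 weeks, whereas Thbd keeps a similar distance at all ages and Plat scatters around 0.

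Counted at 2-fold among genes well above background on both arrays, 3 of 5 members (F3, Procr and Plaur) were higher in the null array at 5 weeks, against 3.73% of 16394 genes. At 10 weeks it was 1 of 7, namely Plau, against 4.65% of 17118 genes. At 50 weeks it was 2 of 5, F3 and Plaur, against 2.10% of 17074 genes. None of these members was 2-fold lower at any age, against 4.58%, 4.9% and 4.18% of genes at 5, 10 and 50 weeks. The median log2 difference of these members was 1.59, 0.13 and 0.75 at 5, 10 and 50 weeks, and that of all genes above background on both arrays 0.01, 0.05 and 0.02. Since F3 chose the set on this contrast, nothing is read from these counts. Of the 5 members above background on all 6 arrays, 2 (Thbd and Plaur) had every null signal above every wild-type signal, as did 14.7% of 15968 genes, and the same 2 were higher in the null array at all 3 ages, as were 29.6% of those genes. No gene of the array passed the limma test of genotype over the 3 ages (0 of 17860, or 0%, in either direction, smallest adjusted p 0.091), although 24.0% of genes had an unadjusted limma p under 0.05.

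Where F3 and Procr were level between genotypes, at 10 weeks, the wild type was at its highest for both. The wild-type arrays compared here are those whose low F3 signal at 5 and 50 weeks chose the set, so the shares of all genes below are printed beside the members' counts and nothing is read from them. From 5 to 10 weeks F3 was 7.39-fold higher, Plaur 3.65-fold and Procr 3.10-fold in the wild type, 3 of 5 members at 2-fold or more against 3.21% of 16886 genes, while Plat was 2-fold lower (1 of 5, against 3.75%). From 10 to 50 weeks F3 was 3.36-fold and Procr 2.49-fold lower in the wild type, 2 of 5 members against 3.47% of 17154 genes, and Plaur was 1.74-fold lower. At 50 weeks the wild-type signals of F3 and Plaur were still 2.20-fold and 2.10-fold above those of 5 weeks, 2 of 5 members against 3.3% of 16535 genes, and Plat was lower (1 of 5, against 4.43%). A 10-week signal at least 2-fold above both other wild-type ages was found for F3 and Procr, 2 of the 5 members above background on all 6 arrays, and for 1.25% of 15968 genes. In the null arrays the same genes varied less, with F3 2.02-fold lower from 5 to 10 weeks and 1.37-fold higher from 10 to 50 weeks. Of 7 members measured in both null arrays, none was 2-fold higher (against 2.84% of genes) and 1, F3, lower (against 2.88%) from 5 to 10 weeks. From 10 to 50 weeks 0 of 7 were higher or lower (against 0.568% and 2.55%), and Tfpi alone was lower from 5 to 50 weeks (1 of 7, against 6.42%). Over the 3 ages the highest and lowest signal of F3 lay 7.39-fold apart in the wild type and 2.02-fold in the null arrays, those of Procr 3.10-fold and 1.58-fold, and those of Plaur 3.65-fold and 1.79-fold. The range was wider in the wild type for all 5 members above background on all 6 arrays, and for 54.1% of 15968 genes. Being 2-fold higher in the null array at 5 and 50 weeks but under 2-fold apart at 10 weeks held for F3 and Plaur, and for 72 of those 15968 genes (0.451%), and is the pattern F3 was chosen for. The 10-week wild-type array is the one with raised liver transcripts, and with the 50-week one it carries the Krt5 signal. The part of either in the F3, Procr and Plaur values was not tested.

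Age, averaged over the genotypes, was not used to choose the genes, and it gave no call among them. In the limma F test over the 3 ages, 0 of the 7 members tested passed at an adjusted p under 0.05, against 2 of 17860 genes (0.0112%), the Y-linked Ddx3y and Eif2s3y. The adjusted p of the members lay between 0.355 for Thbd and 0.821 for Plaur. An unadjusted limma p under 0.05 was found for 2 of the 7, Thbd and Plat, and for 13.6% of all genes. Thbd was higher by 0.62 ± 0.15 (log2, ± SE) at 10 than at 5 weeks and lower by -0.63 ± 0.15 at 50 than at 10 weeks, with limma adjusted p-values of 0.395 and 0.711. Plat was lower by -1.16 ± 0.26 at 50 than at 5 weeks (limma adjusted p = 0.223), in both genotypes, over the same interval as the sex-linked genes changed. With 2 arrays per age, differences that fail this test are not shown to be absent.

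F3, Plaur and Procr, which were each highest at 10 weeks in the wild type, each held a match to the AP-1 motif in the 250 bases before their RefSeq start (GRCm38.p6). These 3 windows are printed because their genes had both that wild-type peak and an AP-1 match. Both picked the windows, so nothing is read from their occurring together. In the null arrays F3 and Plaur were lowest at 10 weeks and Procr at 50 weeks. The wild-type peak was not theirs alone. Wild-type Tfpi at 10 weeks was at least 1.85-fold above 5 weeks and 2.18-fold above 50 weeks, and neither of its windows held an AP-1 match. Thbd and Plau were also highest at 10 weeks in the wild type, Plau with its other wild-type signals not well above background. Of the 8 genes, 5 had entries in the promoter table (F3, Tfpi, Tfpi2, Procr and Plaur) and Thbd, Plau and Plat had none. Searched on both strands were AP-1 (TGANTCA), Sp1 (GGGCGG), Egr1 (GCGNGGGCG), NF-κB and the TATA box (TATAAA), and capitals mark every match. The F3 window lies at chr3:121723287-121723536, the Plaur window at chr7:24462233-24462482 and the Procr window at chr2:155750967-155751216, all on the plus strand and printed 5′ to 3′ up to the base before the start.

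F3: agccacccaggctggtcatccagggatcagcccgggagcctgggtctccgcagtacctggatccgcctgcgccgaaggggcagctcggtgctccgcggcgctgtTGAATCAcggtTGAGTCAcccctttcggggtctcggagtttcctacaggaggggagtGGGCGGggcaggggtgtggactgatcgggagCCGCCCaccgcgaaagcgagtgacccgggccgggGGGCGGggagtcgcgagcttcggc
Plaur: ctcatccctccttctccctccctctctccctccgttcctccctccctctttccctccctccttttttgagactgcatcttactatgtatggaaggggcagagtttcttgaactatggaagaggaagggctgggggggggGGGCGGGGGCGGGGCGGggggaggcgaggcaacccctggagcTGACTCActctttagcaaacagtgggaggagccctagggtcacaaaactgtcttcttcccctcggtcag
Procr: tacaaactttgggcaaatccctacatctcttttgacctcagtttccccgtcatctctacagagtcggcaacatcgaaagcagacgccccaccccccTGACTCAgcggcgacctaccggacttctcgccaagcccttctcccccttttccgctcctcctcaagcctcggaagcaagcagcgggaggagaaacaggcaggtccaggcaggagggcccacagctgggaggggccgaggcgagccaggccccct

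The F3 window holds 2 AP-1 matches, TGAATCA and TGAGTCA, beginning 146 and 135 bases before the start, and 3 Sp1 matches. The Plaur window holds 1 AP-1 match, TGACTCA, at 69 bases, beside 3 Sp1 matches, the first 2 of which overlap an Egr1 match. The Procr window holds 1, TGACTCA, at 154 bases. Across all 32851 promoter windows of this length 6.75% held an AP-1 match, 32.7% an Sp1 match, 4.70% an Egr1 match, 12.4% a TATA box and 1.41% an NF-κB match. Tfpi2, not above background on any array, also held an AP-1 match in 1 of its 3 windows, and neither Tfpi window did. None of the 8 windows held an exact match to the 1 NF-κB pattern searched. Stretches that differ from that pattern by 1 letter were not searched for, so NF-κB sites are not excluded. The F3 window holds such a stretch after its 2 AP-1 matches. A match of letters is a description of the sequence and no evidence of binding.

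The 5 genes whose pattern was most like that of F3 over the 6 arrays were Ly6m, Tnfrsf12a, Arid5a, Ttc9 and Adam8. They had the highest Pearson correlations with F3 on the log2 scale, from 0.983 to 0.996, among 3843 genes with an SD of at least 0.5. As these 5 were picked for that likeness, their shared course and genotype differences follow from the choice, and nothing is read from them. Their Spearman correlations were 0.771 to 0.943. Tnfrsf12a, the receptor of the cytokine TWEAK, differed by 2.79, 0.18 and 1.34 between genotypes at 5, 10 and 50 weeks. Adam8, a membrane metalloproteinase-disintegrin, differed by 3.68, 0.30 and 1.62, and Ly6m, a member of the Ly6 family, by 3.07, 0.18 and 1.78. Arid5a, which encodes an RNA-binding protein that stabilises cytokine mRNAs, differed by 2.80, -0.39 and 1.59. Ttc9 was well above background on 4 arrays only. Among the members Plaur was closest to F3 (r = 0.971, rank 13 of the 3843 genes), then Procr (r = 0.891, rank 109) and Plau (r = 0.857, rank 168), while Plat had r = -0.20. All correlations are over the same 6 arrays, which share tissue handling and scaling. Without the wild-type arrays of 5 and 50 weeks, those farthest from the median of F3, r over 4 arrays was 0.824 for Plaur, 0.769 for Plat, 0.11 for Plau and -0.13 for Procr. The likeness of Procr and Plau to F3 thus rests on those 2 arrays, and with Plat nearly level with Plaur, 4 arrays do not set Plaur apart.

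**Figure D3:**
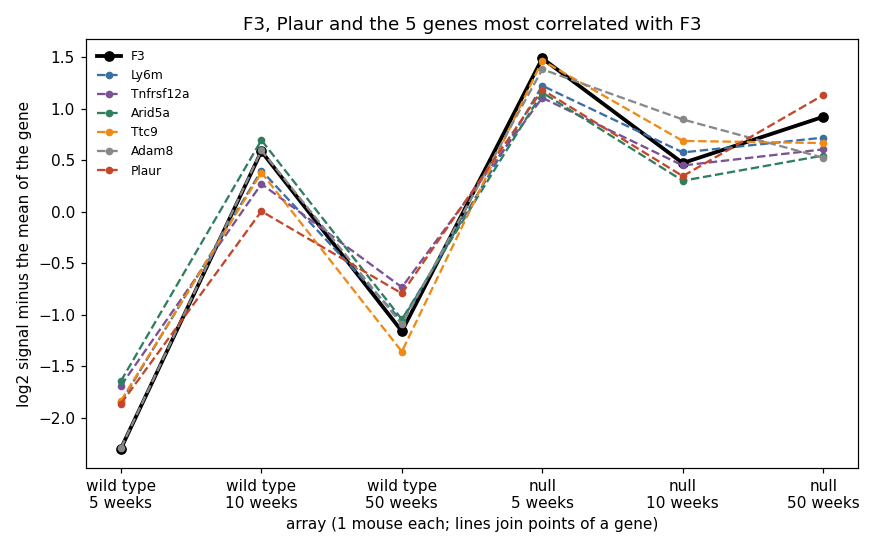
Log2 signal of F3 (black), Plaur and the 5 genes most correlated with F3, each minus its own mean over the 6 arrays; each point is 1 mouse and lines only join the points of a gene. All 7 genes are lowest on the 5-week wild-type array, rise on the 10-week wild-type array and fall again on the 50-week one, and all are highest on the 5-week null array. The 5 genes were picked for this likeness to F3, so their shared course follows from the choice.

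The other genes of clotting and plasminogen activation were counted from lists by role, 41 genes in all, of which 27 were bright enough to test. None passed the limma test of genotype (0 of 27, against 0% of all genes; smallest limma adjusted p 0.112), and 11 had an unadjusted p under 0.05, as had 24.0% of all genes. The median of their mean log2 differences was -0.07, against 0.01 for all genes tested. At 2-fold over the mean of the ages, 5 were higher and 5 lower, against 3.13% and 3.28% of all genes. A mean above 0, counted by role in what follows, was found for 13 of the 27 and for 50.6% of all genes. None of the 27 passed the test of age.

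Among the inhibitors of plasminogen activation and plasmin, Serpinf2, the plasmin inhibitor α2-antiplasmin, differed by 0.59 ± 0.16 SE (limma adjusted p = 0.165), Cpb2, a carboxypeptidase that slows fibrin breakdown, by -0.92 ± 0.44 SE (0.278) and Spint1, an inhibitor of membrane serine proteases, by 0.18 ± 0.12 SE (0.400). Of 9 inhibitors listed 5 were tested and 4 had a mean difference above 0, with a median of 0.18.

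Plasminogen itself was well above background on 1 array, the 10-week wild-type array with raised liver transcripts, at a relative signal of 0.459. Annexin A2 (Anxa2) and S100a10, which together form a cell-surface receptor for plasminogen, stood higher in every null array than in the wild-type array of the same age. S100a10 had relative signals of 3.14, 7.64 and 5.59 in the wild type and 11.5, 11.3 and 11.9 in the null arrays (mean log2 difference 1.18 ± 0.29 SE, limma adjusted p = 0.159). Anxa2 stood at 56.2, 114 and 98.5 in the wild type and 153.8, 158.1 and 190.1 in the null arrays (0.96 ± 0.23 SE, limma adjusted p = 0.154). For both genes every null signal was above every wild-type signal, and the wild type was lowest at 5 weeks. Such a separation was found for 14.7% of the 15968 genes above background on all 6 arrays. Vtn, which encodes vitronectin, a binding partner of Plaur, differed by -1.41 ± 0.47 SE (limma adjusted p = 0.189), and the plasminogen receptor gene Plgrkt by -0.23 ± 0.12 SE (0.302). Of 8 genes listed 6 were tested and 2 had a mean above 0, with a median of -0.09.

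Of the protease-activated receptors, through which thrombin and other clotting proteases signal, F2r and F2rl1 were tested and F2rl2 and F2rl3 stayed at background level on all 6 arrays. F2r, the thrombin receptor, stood at relative signals of 0.114, 0.440 and 0.228 in the wild type and 0.335, 0.716 and 0.397 in the null arrays. It was higher in the null array at each age and highest at 10 weeks in both genotypes (mean 1.02 ± 0.22 SE, limma adjusted p = 0.145). F2rl1, a receptor cleaved by trypsin-like proteases, differed by 0.23 ± 0.15 SE (limma adjusted p = 0.400). The median of the pair was 0.62.

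The clotting factors divided. F5, the cofactor of factor Xa, stood at relative signals of 0.200, 0.244 and 0.393 in the wild type and 0.491, 1.57 and 1.64 in the null arrays at 5, 10 and 50 weeks. It was higher in every null array than in any wild-type array (mean 2.01 ± 0.30 SE, limma adjusted p = 0.127), as were 14.7% of the 15968 genes above background on all 6 arrays. Vwf, the von Willebrand factor of endothelium and platelets, differed by 1.04 ± 0.21 SE (limma adjusted p = 0.141). The fibrinogen chains Fgb and Fgg reached relative signals of 2.88 and 1.93 on the 10-week wild-type array, fell short of the background threshold in the null mice of 10 and 50 weeks, and differed by -4.02 ± 1.78 SE and -3.62 ± 1.67 SE (limma adjusted p = 0.258 and 0.268). The 2 probes of F10 disagreed, as 1 ranked among the 18 brightest of the array on every array and the other between ranks 14852 and 19747, so no value is given for it, although it counts among the 9 tested. Of 14 factors listed 9 were tested and 3 had a mean above 0, with a median of -0.27.

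Among the anticoagulant proteins, Proc, the zymogen that Thbd and Procr act on, was lower in the null array at every age. Its relative signals were 1.44, 1.04 and 0.512 in the wild type and 0.459, 0.351 and 0.244 in the null arrays. Every wild-type signal was above every null signal (mean -1.43 ± 0.17 SE, limma adjusted p = 0.112). The share of all genes separated in that direction was not counted. With the normexp background correction Proc passed (limma adjusted p = 0.0394), alone among the 27. Under that correction 91 of all 17860 genes passed as lower and 107 as higher, and Proc passed in no other fit. The antithrombin gene Serpinc1 differed by -0.97 ± 0.65 SE (limma adjusted p = 0.409) and Serpind1, heparin cofactor II, by -1.28 ± 0.96 SE (0.452). Serpind1 was well above background on 3 of the 6 arrays, so its mean rests in part on background-level signals. Anxa5, which binds exposed phosphatidylserine, differed by 0.59 ± 0.17 SE (limma adjusted p = 0.173). Of 6 listed 5 were tested and 2 had a mean above 0, with a median of -0.97.

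Several of these genes were highest on the array with the most liver signal. F2, Fgb, Fgg, Pros1, Serpinc1, Serpind1, Vtn and Cpb2, 8 of the 27, were highest on the 10-week wild-type array, against 13.1% of all genes tested. All 6 liver markers were well above background on every array, and their summed relative signal was 36.2, 85.9 and 26.1 in the wild type and 34.6, 15.3 and 11.7 in the null arrays at 5, 10 and 50 weeks. Of these 8 genes, F2 and Pros1 alone had their second-highest signal on the 10-week null array, where the liver sum was 15.3. Pros1 was nearly level there with the 10-week wild-type array, at 0.338 against 0.353, and F2 stood at 0.629 against 1.60. The part of liver RNA in the values of these 8 genes was not tested.

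**Figure D4:**
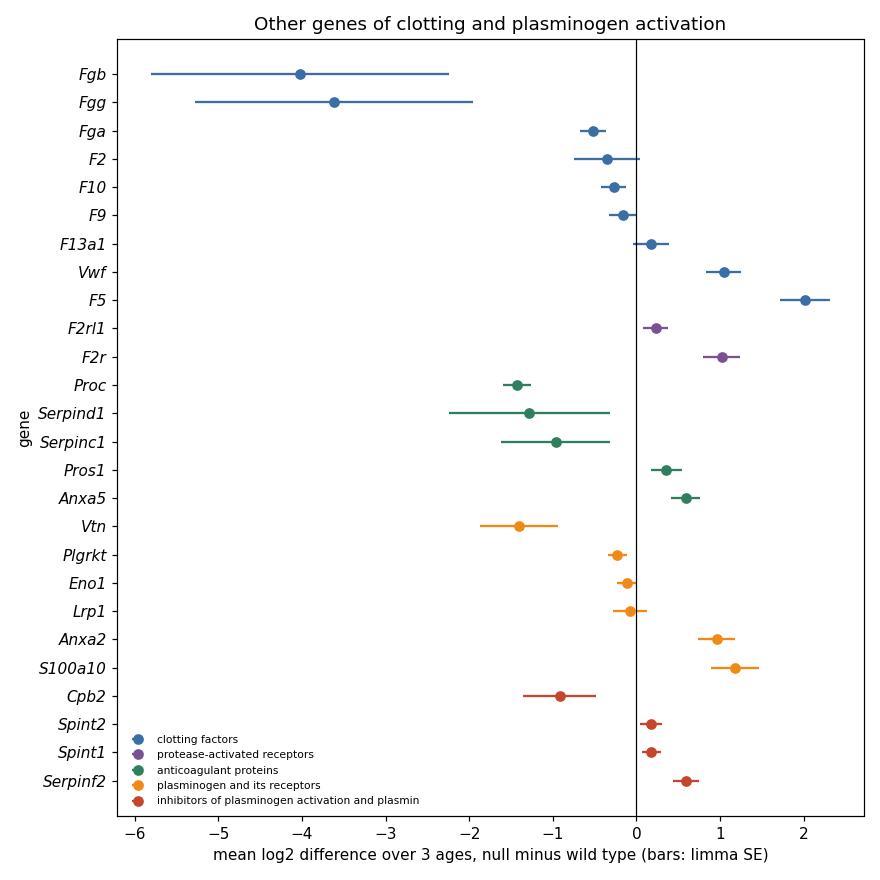
Mean log2 difference over the 3 ages, null minus wild type, with the limma SE, for 26 of the 27 other genes of clotting and plasminogen activation that were tested, coloured by role. Of those drawn, F5 lies farthest above 0, and Fgb and Fgg, not well above background on 2 or 3 of the arrays, farthest below 0 with the widest errors.

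Immediate-early genes include those of the AP-1 subunits. Of 15 listed 14 were tested, 0 passed for genotype or age by limma, and 12 were higher in the null array at 5 weeks, 12 at 50 weeks and 1 at 10 weeks, against 50.8%, 52.9% and 53.0% of all genes. Their median log2 differences were 0.84 at 5 weeks, 0.53 at 50 weeks and -0.45 at 10 weeks. The AP-1 subunit gene Fosl1 stood at relative signals of 0.060, 0.377 and 0.205 in the wild type and 0.620, 0.327 and 0.480 in the null arrays (mean 1.47 ± 0.73 SE, limma adjusted p = 0.294). The other Fos and Jun genes listed did not move together. Fos differed by 1.31, -0.30 and 0.82 at 5, 10 and 50 weeks, and Fosb by 2.09, -0.43 and 0.93. Jun, the brightest of them, differed by -0.33, -0.60 and -0.21. Junb was higher by at least 1.31 at 5 weeks and differed by -0.35 and -0.51 at 10 and 50 weeks. Neutrophil and monocyte markers differed among themselves, and none passed the limma test of genotype. S100a8, S100a9, Retnlg and Il1b differed by 2.23 to 4.37 on the log2 scale at 5 weeks, Csf3r by -0.75 and Elane by 0.01, and Cxcr2, Mpo and Ccr2 gave no signal well above background. Of 9 neutrophil and monocyte markers 6 were tested, with median log2 differences of 2.61, 0.53 and 1.18 at 5, 10 and 50 weeks, and their summed relative signal was 44.5 to 74.4 in the wild type and 40.5 to 53.5 in the null arrays, of which Csf3r alone made 36.8 to 71.0. The part of these cells in the values of F3, Plau and Plaur was not tested.

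The remaining marker lists were read the same way. In these and the lists above, medians are of the genes tested, counted here in brackets. Sums take every listed gene on the array, dim ones included. Macrophage markers (9 of 11 tested) had medians of 0.41, 0.38 and 0.46 at 5, 10 and 50 weeks and summed to 8.53 to 11.7 in the wild type and 10.4 to 15.0 in the null arrays. Fibroblast markers (10 of 10) had medians of 1.08, 0.73 and 0.67 and summed to 15.1 to 23.3 and 23.9 to 31.7. Red cell markers (3 of 6 listed) summed to 127.4 on the 5-week null array and to 6.48 to 26.2 on the other 5, and platelet markers (4 of 8) to 0.743 to 1.29 in the wild type and 1.04 to 1.86 in the null arrays. Smooth muscle markers (7 of 7) had medians of 2.04, 0.55 and -2.43 and summed to 12.9 to 71.7 and 18.3 to 62.3. Squamous markers (6 of 13 listed) had medians of 0.44, -0.12 and -0.18 and summed to 19.98 to 44.9 and 41.3 to 64.7. Sprr1a alone made 7.81 to 31.2 and 30.3 to 52.9 of these sums. These markers disagreed. Krt14, Krt1, Krt6a and Sprr3 were well above background on 2 arrays only, the wild-type ones of 10 and 50 weeks, while Sprr1a and Ivl were highest on the 5-week null array. Mesothelial markers (1 of 4) summed to 1.26 to 1.65 and 1.49 to 3.87, and gastric epithelial markers (10 of 10) to 4312 to 4459 and 3127 to 4652. None of these lists holds a gene that passed the limma test of genotype, and their part in the 8 genes' values was not tested.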

How the data were processed

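RNA of 6 mice was hybridised to 1-colour Agilent arrays, with Cy3 labelling by a Quick Amp kit per the labels. The spot intensity used is the processed signal of Feature Extraction 10.7.1.1 (Agilent), background-subtracted per the file headers. The log2 table the authors deposited was equal to the log2 processed signal plus 1 constant per array (-8.54 to -7.88, within a tolerance of 0.01 for 100% of 39399 probes; column medians -3.89 to -3.56), used as an alternative only; how the constants were chosen is not given in the sources used here.

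The log2 processed signal of each array had its 75th percentile subtracted. Flagged spots (98 to 144 per array) were dropped, 0 were saturated, and spots of a probe were averaged. Probes were named through RefSeq tables (26038 by accession, 3199 by symbol, 930 by synonym), 9232 kept the array's name, and the brightest probe stood for a gene. Genes well above background on at least 3 arrays were tested with limma 3.58.1 in R 4.3.3, with genotype plus age as a factor. The fit had 2 residual and 2.14 prior degrees of freedom, with Benjamini-Hochberg adjustment over 17860 genes and a threshold of 0.05. It was also run on simulated data with independent noise and no slide, sex or genotype-by-age effect, so nothing about these is read from that run. Where 1 array was not well above background, "at least" folds use the higher of its lowest signal above background and the probe's own. Normalized log2 values define all differences. In the fits with the age term, each p-value sets a difference against the spread left after genotype and age are fitted. That spread is how far the genotype difference varied over the 3 ages, with 1 mouse per genotype and age.

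The members and gene lists were chosen with earlier results of these data known. Named beside the members are, per role, the 4 listed genes with the largest mean difference and the 5 genes most correlated with F3. Fosl1 and the other Fos and Jun genes, Plg, F10 and the single markers were chosen after their values were seen. For 1 gene of the lists, which the counts include, values are not reported here. Alternatives were normexp (offset 50), quantile and median scaling, the authors' table, the mean of probes, filters on all 6 arrays or none, a variance trend, no age term, a fold of 4, Spearman correlation, and leaving out each array.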

Additional observations from a re-analysis of the deposited data

How the results depend on the processing

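The count of genes passing for genotype, 0 higher and 0 lower, became 107 and 91 with normexp, 39 and 19 with a variance trend, 4 and 3 with no age term, and 0 and 1 with quantile normalization. It stayed at 0 and 0 with median scaling, the mean of probes, both filters and without each array (0 to 0). Leaving out either array of an age drops that age from the genotype difference, so both fits give the same value and are not separate checks. Those fits also have fewer residual degrees of freedom than the main one, so 0 calls there show little. With normexp 1 of the 27 pathway genes passed, and 0 passed under the other alternatives. The count passing for age, 2, was 8 with normexp, 5 with a variance trend, 0 with the filter on all 6 arrays, 0 with no filter and 0 to 0 without each array; 0 members passed in any of these fits. The cause of these changes was not tested. The members 2-fold higher at 10 weeks numbered 0 with normexp in place of 1. At a fold of 4 the count at 50 weeks was 1 in place of 2. The mean F3 difference was 0.98 to 2.93 without each array. The labels give no replicate numbers; arrays of the same age are paired through the age term in every fit but the one without it. Of the 5 genes most like F3 by Pearson correlation, 3 were also among the highest by Spearman. Dim signals limit Tfpi, Tfpi2 and Plau.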
